A study of Mus musculus with 4 samples.

Results

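Of 45 genes that signal or repair DNA damage, 44 could be tested in fluoxetine-treated S-180 cells, and 10 of them fell while 3 rose. The genes had been listed by name, with earlier results of these data known but by no rule on their values, and each was found through the RefSeq accession of its array probes. All 45 had at least 1 probe, among 23771 gene symbols with a probe on the array, and 13539 symbols in all could be tested. S-180 is an established line of mouse sarcoma cells. The control group was S-180 cells left without drug, and the treated group was S-180 cells kept for 12 h with 20 µM of the selective serotonin reuptake inhibitor fluoxetine. Each group had 2 samples, and each sample was read on its own single-colour Agilent array. The labels call them biological replicates without saying whether the cultures were separate, so p-values measure only the spread between these samples.

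Cells sense damaged DNA through the kinases ATM and ATR, which pass the signal to the checkpoint kinases CHK2 and CHK1 and hold the cell cycle. Double-strand breaks are then mended by homologous recombination, which copies an intact sister strand and serves mainly dividing cells, or by end joining, which rejoins the ends directly. Crosslinks need the Fanconi pathway, replication errors need mismatch repair, bulky lesions need nucleotide excision repair, and small base lesions and single-strand breaks need base excision repair.

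Signal is given below as relative signal, the background-corrected probe intensity divided by the 75th percentile of its array, and levels are not compared between probes. A change is the difference of log2 relative signal, fluoxetine minus control, with its standard error (SE) from a limma fit over all genes and n = 2 arrays per group. The words rose and fell are kept for genes with a Benjamini-Hochberg adjusted p under 0.05. The array's 75th percentile ranged from 554 to 675 and between 51.7% and 53.5% of spots were well above background, with 0 spots saturated. The array medians, 25.6 to 36.8, lay near the lowest signals well above background, 15.8 to 22.3. Of the markers checked against the sarcoma label, 5 of 8 mesenchymal genes were above background on all arrays, but Pdgfrb and Thy1 on no array and Col1a2 on the control arrays alone. So were 4 of 8 leukocyte, 3 of 5 epithelial and 1 of 5 endothelial genes. Among the leukocyte markers Ptprc, Adgre1 and Lyz2 were not well above background, while Cd68 and Cd3e rose and Itgam fell. A further dim Itgam probe, above background on the fluoxetine arrays alone, was higher with fluoxetine. The mesenchymal Col1a1 and Col1a2 and the epithelial Krt18 also fell, and Col1a2, above background on the control arrays alone, had to differ. The part of these markers in the results was not tested. In these bulk samples a smaller share of some cells and less RNA per cell cannot be told apart.

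The genes that fell were Palb2, Exo1, Rad54l, Xrcc3, Fanca, Atr, Ercc2, Blm, Chek1 and Brca2, and those that rose were Parp1, Ung and Chek2. The 10 falls were 22.7% of the 44 tested genes, beside 11.8% of all 13539 genes. The 3 rises were 6.82%, beside 16.3% of all genes. The remaining 31 genes did not pass the test. The median change of the 44 genes was -0.11, beside 0.02 over all genes tested, but it turned to 0.13 when arrays were scaled by their medians, where all genes had a median of 0.27. The median of the repair genes differed from that of all genes by -0.14. Changing between these scalings adds the same amount to every gene, so this difference had to be the same under both. Scaling by the median also raised the share of all called genes that were higher from 58% to 86.8%, and with it 11 of the repair genes were called higher and 5 lower. With median scaling 39.1% of all genes tested were called higher and 5.94% lower. Every count given below for that scaling stands beside these shares.

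Both fluoxetine arrays lay below both control arrays for 21 of the 44 genes, or 47.7%, beside 34.2% of all genes tested. Both lay above for 10 genes, or 22.7%, beside 38.9% of all genes. For 13 genes the groups overlapped. For each of the 13 called genes the groups did not overlap, so leaving out any single array could not turn its direction. The calls did not hold. limma called 0 of the 44 genes without control 1, fluoxetine 1 or fluoxetine 2, where 15 to 18 had an unadjusted p under 0.05, and 6 falls and 2 rises without control 2.

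**Figure D1:**
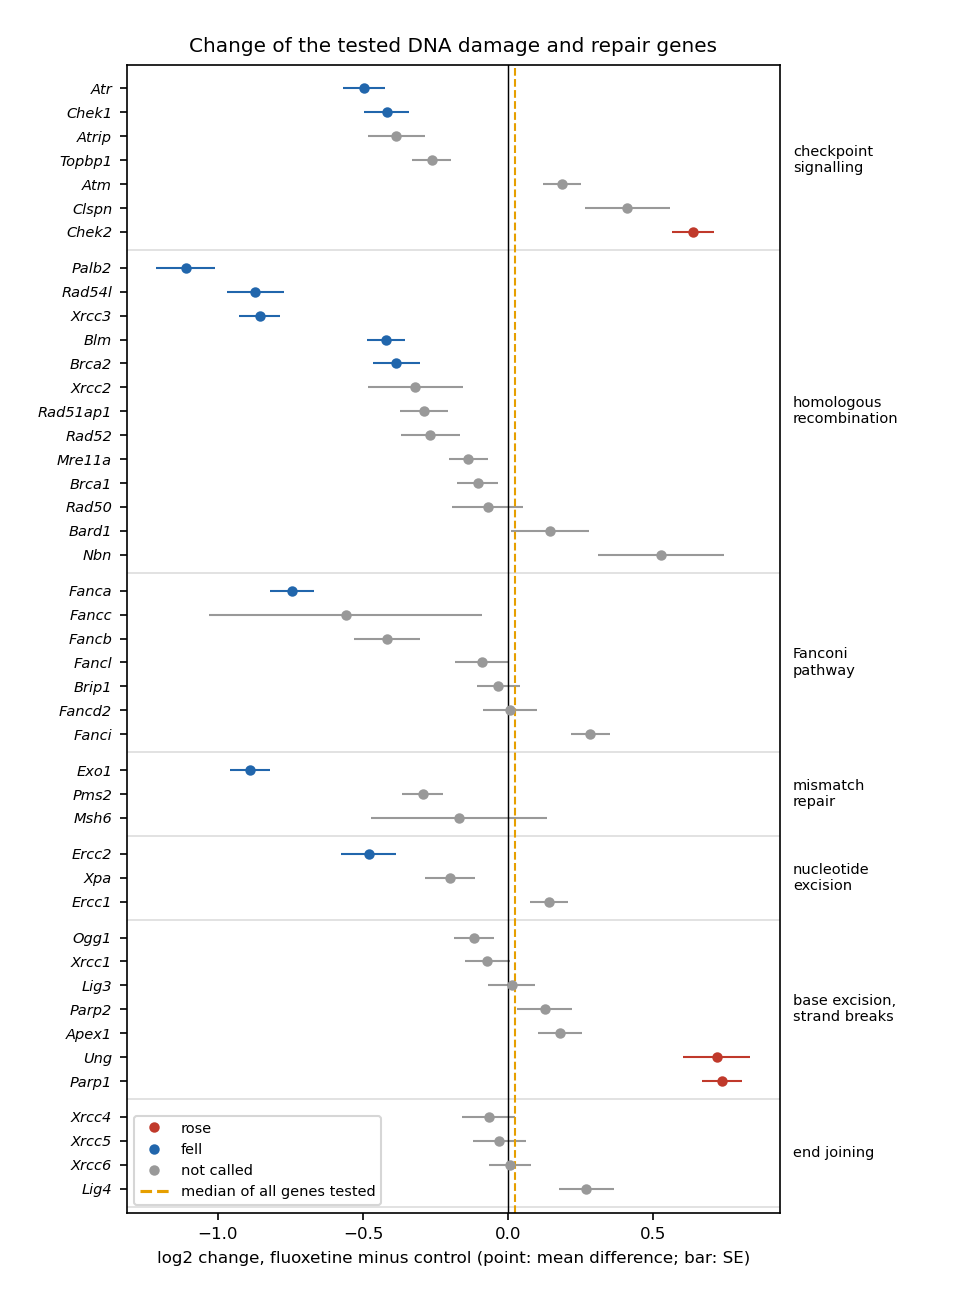
Log2 change (fluoxetine minus control) of the 44 tested genes, grouped by repair pathway, with points for the mean difference and bars for the SE, from 2 arrays per group. Blue marks genes that fell, red genes that rose and grey genes that did not pass the test; most homologous recombination genes lie left of the dashed median of all genes tested (0.02), and Parp1, Ung and Chek2 lie farthest right.

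Promoters are shown because 10 of the genes fell together, so that short sequence elements could be set side by side. Promoter windows came from RefSeq (GRCm38.p6), from 250 bases before to 50 after the start, and were held for 40 of the 45 genes; those not held were Exo1, Fancd2, Nbn, Rad50 and Xrcc2. The CCAAT box was searched as CCAAT on both strands. It was in 24 of the 40 promoters, or 60%, beside 39.1% of the first promoters of the 10796 tested genes that had one and 37.4% of all 32851 promoters in the table. Among the genes that fell, 6 of 9 promoters held it (Blm, Ercc2, Fanca, Palb2, Rad54l and Xrcc3), beside 44.1% of all genes that fell. Among the genes that did not pass the test 17 of 27 held it, or 63.0%, close to the 66.7% among those that fell. Of the 3 genes that rose, Chek2 held it, and Parp1 and Ung did not. The promoters of the falling genes Atr, Brca2 and Chek1 did not. The 150 bases before the start are printed for genes chosen to show both cases in each direction, on the gene's own strand and with each match in capitals. Xrcc3, Ercc2, Fanca and Rad54l fell and hold the box, Chek1 fell without it, Chek2 rose with it, and Parp1 and Ung rose without it.
Xrcc3 (chr12:111813880-111814029, minus strand): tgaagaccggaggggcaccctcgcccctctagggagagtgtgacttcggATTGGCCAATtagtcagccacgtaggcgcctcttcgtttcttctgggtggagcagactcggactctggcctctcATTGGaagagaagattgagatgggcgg
Ercc2 (chr7:19381867-19382016, plus strand): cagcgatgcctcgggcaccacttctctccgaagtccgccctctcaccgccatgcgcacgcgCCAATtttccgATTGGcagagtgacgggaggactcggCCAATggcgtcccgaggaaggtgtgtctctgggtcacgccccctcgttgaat
Fanca (chr8:123318577-123318726, minus strand): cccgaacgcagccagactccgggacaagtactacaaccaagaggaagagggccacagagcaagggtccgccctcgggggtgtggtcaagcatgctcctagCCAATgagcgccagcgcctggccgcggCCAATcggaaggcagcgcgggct
Rad54l (chr4:116123691-116123840, minus strand): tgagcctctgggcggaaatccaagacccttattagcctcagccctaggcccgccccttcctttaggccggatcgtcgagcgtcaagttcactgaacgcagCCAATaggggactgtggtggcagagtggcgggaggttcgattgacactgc
Chek1 (chr9:36726659-36726808, minus strand): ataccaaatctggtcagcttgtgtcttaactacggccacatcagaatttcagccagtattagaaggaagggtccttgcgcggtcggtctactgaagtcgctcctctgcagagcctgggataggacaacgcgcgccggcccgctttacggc
Chek2 (chr5:110839833-110839982, plus strand): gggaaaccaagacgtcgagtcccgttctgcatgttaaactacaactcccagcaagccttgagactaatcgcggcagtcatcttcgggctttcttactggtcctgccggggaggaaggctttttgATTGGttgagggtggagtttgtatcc
Parp1 (chr1:180568741-180568890, plus strand): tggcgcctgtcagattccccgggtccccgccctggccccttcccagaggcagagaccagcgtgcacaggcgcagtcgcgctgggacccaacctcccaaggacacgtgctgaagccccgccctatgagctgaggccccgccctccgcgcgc
Ung (chr5:114130285-114130434, plus strand): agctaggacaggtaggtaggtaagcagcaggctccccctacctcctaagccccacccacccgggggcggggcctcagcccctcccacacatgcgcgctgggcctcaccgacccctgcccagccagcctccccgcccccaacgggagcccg
The Xrcc3 window holds 3 matches, of which a forward and a reverse one touch, the Ercc2 window holds 3, the Fanca window 2, and the Rad54l and Chek2 windows 1 each. A match here is a run of letters and was not tested as a binding site.

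Binding motifs of the E2F factors, which are known to drive many genes of the S phase, were searched as TTTCCCGC, TTTGGCGC, TTTCGCGC and TTTGCCGC on both strands. They were in 7 of the 40 promoters, or 17.5%, beside 3.94% of the tested genes' first promoters and 2.26% of all promoters. The 7 genes were Bard1, Brca2, Chek2, Clspn, Msh6, Topbp1 and Xrcc6, of which Brca2 fell and Chek2 rose. The other five did not pass the test, so genes with these letters moved in both directions or were not called. A pair with a match within the 150 bases before the start is printed, with the match in capitals.
Topbp1 (chr9:103305177-103305326, plus strand): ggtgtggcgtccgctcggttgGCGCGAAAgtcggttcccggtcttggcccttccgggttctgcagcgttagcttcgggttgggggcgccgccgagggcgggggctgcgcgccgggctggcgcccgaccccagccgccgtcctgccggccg
Xrcc6 (chr15:82016219-82016368, plus strand): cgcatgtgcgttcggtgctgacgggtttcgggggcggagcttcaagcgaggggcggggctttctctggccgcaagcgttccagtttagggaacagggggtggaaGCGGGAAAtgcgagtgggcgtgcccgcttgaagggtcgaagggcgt
Further elements were searched on both strands. The cell cycle element CHR (TTTGAA and TTCGAA) was in 7.5% of the 40 promoters, beside 14.7% of the tested genes' promoters. The ETS motif CCGGAAG was in 25%, beside 17.6%, and the cyclic AMP element TGACGTCA in 2.5%, beside 3.3%.

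In checkpoint signalling Atr and Chek1 fell and Chek2 rose. Of 7 checkpoint genes tested, 2 fell (28.6%, beside 11.8% of all genes) and 1 rose (14.3%, beside 16.3%). With median scaling 3 were called higher, and Atr and Chek1, still lower, were not called. Atr encodes the kinase that is drawn to single-stranded DNA at stalled forks. Its relative signal was 8.92 and 8.41 on the control arrays and 6.11 and 6.17 on the fluoxetine arrays. All fluoxetine values lay below the controls, a fall by 1.41-fold (log2 change -0.50 ± 0.07 SE, adjusted p = 0.0220). Chek1, the effector kinase below ATR, read 2.19 and 2.38 in controls and 1.72 and 1.70 with fluoxetine. The groups did not overlap, and the log2 change was -0.42 ± 0.08 (1.34-fold lower, adjusted p = 0.0326). A further Chek1 probe read 1.51 and 1.44 against 0.846 and 0.852, with a change of -0.80 ± 0.07.

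Chek2, the effector kinase below ATM, went the other way. It read 0.252 and 0.248 in controls and 0.401 and 0.377 with fluoxetine. Both treated values were higher, a 1.56-fold rise (log2 change 0.64 ± 0.07, adjusted p = 0.0161). Atm itself read 1.5 and 1.5 in controls and 1.68 and 1.73 with fluoxetine, a change of 0.19 ± 0.07 that did not pass (adjusted p = 0.111). Atrip, the partner that brings ATR to DNA, had a change of -0.39 ± 0.10 (adjusted p = 0.0589). Topbp1, which switches ATR on, had a change of -0.26 ± 0.07 (adjusted p = 0.0590). The groups did not overlap for any of these 3 genes, as was common among all genes tested (38.9% higher and 34.2% lower).

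Clspn encodes claspin, the adaptor through which ATR activates CHK1, and its probes disagreed. The brightest probe read 0.145 and 0.143 in controls and 0.169 and 0.217 with fluoxetine, a change of 0.41 ± 0.15 (adjusted p = 0.110). The other probe read 0.215 and 0.187 in controls and 0.0749 and 0.0835 with fluoxetine, a change of -1.34 ± 0.11 (adjusted p = 0.0132 in a fit over all probes). The direction for Clspn thus depended on the probe that stood for the gene.

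Of 15 further checkpoint genes tested, 5 fell (33.3%, beside 11.8% of all genes) and 1 rose (6.67%, beside 16.3%). With median scaling 1 fell and 3 rose. The largest falls were in Rif1 (-0.97 ± 0.06), a break-response and replication-timing factor, Etaa1 (-0.50 ± 0.09), a further activator of ATR, and Cdc25a (-0.48 ± 0.07), the phosphatase that CHK1 opposes. Wee1, the kinase that restrains entry into mitosis, rose by 0.49 ± 0.09. Over all 22 checkpoint genes the median change was -0.14, which turned to 0.10 with median scaling, beside 0.27 for all genes.

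Homologous recombination held the most falls. Of 13 genes tested, 5 fell (38.5%, beside 11.8% of all genes) and the other 8 did not pass the test, and 11 had a change below 0. The median change was -0.29, and -0.05 with median scaling. Its difference from the median of all genes was -0.31, which these scalings cannot alter. Palb2 encodes the bridge between BRCA1 and BRCA2. It read 0.382 and 0.337 in controls and 0.173 and 0.159 with fluoxetine. The treated arrays were clearly apart from the controls, a 2.16-fold fall (log2 change -1.11 ± 0.10, adjusted p = 0.0129). No other of the 44 genes fell by over 2-fold, as did 2.46% of all genes tested. Its other probe read 0.157 and 0.150 against 0.173 and 0.153, a change of 0.09 ± 0.10 (adjusted p = 0.518), and so did not show the fall.

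Rad54l encodes a DNA motor that works during strand exchange. It read 0.662 and 0.617 in controls and 0.372 and 0.328 with fluoxetine. The groups were separate, with a 1.83-fold fall (log2 change -0.87 ± 0.10, adjusted p = 0.0160). Xrcc3, a recombination mediator, read 1.09 and 1.13 in controls and 0.627 and 0.602 with fluoxetine. Its fall was 1.81-fold with no overlap (log2 change -0.86 ± 0.07, adjusted p = 0.0123). In both promoters shown above a CCAAT box stands within the 150 bases before the start.

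Blm, the helicase mutated in Bloom syndrome, read 2.30 and 2.23 in controls and 1.68 and 1.70 with fluoxetine. The treated values were both lower (log2 change -0.42 ± 0.07, 1.34-fold, adjusted p = 0.0251). Brca2 encodes the large mediator mutated in inherited breast cancer. It read 3.98 and 4.35 in controls and 3.23 and 3.15 with fluoxetine, again without overlap (log2 change -0.38 ± 0.08, 1.31-fold, adjusted p = 0.0392). Other Brca2 probes had changes of -0.15 ± 0.08 and -0.19 ± 0.10, and with the mean of its probes Brca2 was no longer called (adjusted p = 0.0720).

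**Figure D2:**
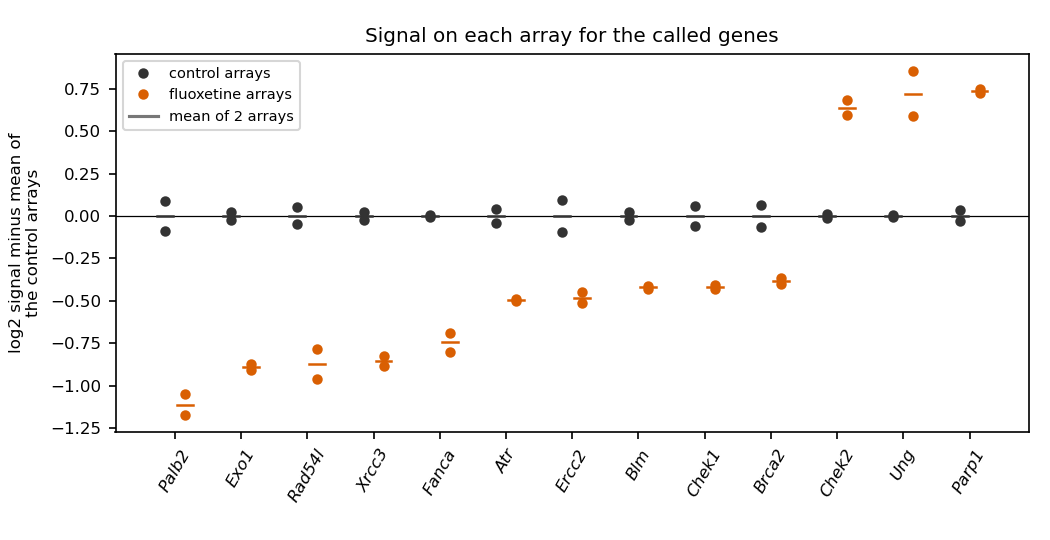
Log2 signal on each array minus the mean of the control arrays, for the 10 genes that fell and the 3 that rose; points are single arrays (2 control, 2 fluoxetine) and short lines are group means. In each of the 13 genes the fluoxetine points lie on 1 side of both control points; the distance is widest for Palb2 (-1.11), and the fluoxetine points of Ung lie farthest from each other among the genes that rose.

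Nbn had the largest change of the recombination genes that did not pass. It encodes a subunit of the MRN complex, which senses and trims broken ends. It read 0.163 and 0.171 in controls and 0.198 and 0.294 with fluoxetine, with both treated arrays higher but unlike each other (change 0.53 ± 0.22, adjusted p = 0.145). The other MRN subunits had changes of -0.14 ± 0.07 for Mre11a and -0.07 ± 0.12 for Rad50. Xrcc2 had -0.32 ± 0.16, Rad51ap1 -0.29 ± 0.08, Rad52 -0.27 ± 0.10, Brca1 -0.11 ± 0.07 and Bard1, the partner of BRCA1, 0.14 ± 0.14, with adjusted p from 0.0704 to 0.451. The brightest Brca1 probe read 4.54 and 4.73 in controls and 4.38 and 4.24 with fluoxetine. A dimmer Brca1 probe read 0.123 and 0.0953 in controls and 0.0478 and 0.0510 with fluoxetine, a change of -1.13 ± 0.15 (adjusted p = 0.0193 in the fit over all probes). The probes for Brca1 therefore gave changes of unequal size.

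Of 18 further recombination genes tested, 8 fell (44.4%, beside 11.8% of all genes) and 2 rose (11.1%, beside 16.3%). With median scaling 2 fell and 5 rose, where 5.94% of all genes were called lower and 39.1% higher. Rmi1, which works in 1 complex with BLM, had the largest fall (-1.37 ± 0.14, 2.58-fold, adjusted p = 0.0145), from 1.75 and 1.42 to 0.576 and 0.646. Wrn, the helicase of Werner syndrome, fell by 2.39-fold (log2 change -1.26 ± 0.11, adjusted p = 0.0129), although 1 of its other probes went the opposite way. Gen1, a nuclease that resolves crossed strands, fell (-0.60 ± 0.11). Mus81, a structure-specific nuclease, rose (0.37 ± 0.06), as did Bap1 (0.39 ± 0.07), a BRCA1-binding deubiquitinase with a further probe at -0.61. Across all 31 recombination genes 13 fell (41.9%) and 2 rose (6.45%), with a median change of -0.29. With median scaling 5 fell and 6 rose.

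In the Fanconi pathway 1 of 7 genes fell (14.3%, near the 11.8% of all genes) and the other 6 did not pass the test. Fanca is part of the core complex that marks FANCD2 and FANCI with ubiquitin. It read 2.61 and 2.59 in controls and 1.49 and 1.61 with fluoxetine. Both treated values were well below (log2 change -0.74 ± 0.08, 1.68-fold, adjusted p = 0.0145), and a second Fanca probe changed by -0.40 ± 0.09 (adjusted p = 0.0444 in the fit over all probes). Fancd2, a target of the complex, read 0.202 and 0.211 in controls and 0.195 and 0.221 with fluoxetine, with overlapping groups and a change of 0.01 ± 0.09. Fanci, the other target, read 0.905 and 0.939 in controls and 1.12 and 1.12 with fluoxetine, higher on both arrays but just short of the threshold (0.28 ± 0.07, adjusted p = 0.0507).

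Fancc, a core complex subunit, read 0.413 and 0.249 in controls and 0.317 and 0.150 with fluoxetine. Its groups overlapped, and its SE was the widest of the 44 genes (change -0.56 ± 0.47, adjusted p = 0.407). Fancb had a change of -0.42 ± 0.11 (adjusted p = 0.0662). Fancl, the ubiquitin ligase, and Brip1, a helicase that binds BRCA1, had -0.09 ± 0.09 and -0.03 ± 0.07. Of 10 further Fanconi genes tested, 4 fell (40%, beside 11.8% of all genes) and 6 did not pass. With median scaling 2 fell and 2 rose. Fan1, a crosslink nuclease, was not well above background on either fluoxetine array and was at least 1.96-fold lower (adjusted p = 0.0358). It passed the filter on dim probes through the control arrays alone, so it had to differ and supports nothing about the pathway, whose further genes had 3 falls without it. The bound sets the mean of the control arrays against the higher of the probe's own signal and the lowest signal above background on each dim array. Fancm, the motor that finds the crosslinked fork, fell (-0.92 ± 0.19), as did its partner Faap24 (-0.65 ± 0.07).

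Mismatch repair had 1 fall among 3 genes (33.3%, beside 11.8% of all genes). Exo1 encodes the exonuclease that removes the mismatched strand and also trims broken ends. It read 7.56 and 7.32 in controls and 3.96 and 4.07 with fluoxetine. The arrays of a group lay close to each other, and the fall was 1.85-fold (log2 change -0.89 ± 0.07, adjusted p = 0.0121). Pms2, a subunit of the MutL endonuclease, read 2.18 and 2.11 in controls and 1.78 and 1.71 with fluoxetine. Its groups did not overlap, yet it stood at the threshold (-0.29 ± 0.07, adjusted p = 0.0502). Another Pms2 probe had a change of -0.85 ± 0.12 (adjusted p = 0.0204 in the fit over all probes). Msh6, which recognises mispaired bases, read 27.2 and 23.0 in controls and 16.9 and 29.2 with fluoxetine. Its fluoxetine arrays fell on either side of the controls (-0.17 ± 0.30). Leaving out 1 array moved the Msh6 change between -0.56 and 0.23. Among 5 further genes Msh3, which recognises larger loops of unpaired bases, rose (0.56 ± 0.08).

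In nucleotide excision repair Ercc2 fell, among 3 genes, and was lower but not called with median scaling. It encodes the XPD helicase of the transcription factor TFIIH, which opens the DNA around a lesion. It read 5.06 and 5.75 in controls and 3.78 and 3.96 with fluoxetine. The groups were separate (log2 change -0.48 ± 0.10, 1.40-fold, adjusted p = 0.0364). A dim second probe, not well above background on either fluoxetine array, was at least 2.60-fold lower. That probe was kept through the control arrays alone, so it had to differ and adds no support to the fall. Xpa, which checks the lesion, read 3.24 and 3.62 in controls and 2.98 and 2.98 with fluoxetine (-0.20 ± 0.09, adjusted p = 0.158). Ercc1, of the nuclease that cuts beside the lesion, had a change of 0.14 ± 0.06 (adjusted p = 0.177). A further Ercc1 probe had 0.45 ± 0.10. Of 16 further genes 3 fell (18.8%, beside 11.8% of all genes) and 1 rose (6.25%, beside 16.3%). The falls were in the stalled-polymerase factor Uvssa (-0.67 ± 0.09) and the damage sensors Ddb2 (-0.35 ± 0.07) and Ddb1 (-0.32 ± 0.06). A second Ddb2 probe stood at 0.07. The median of all 19 genes was 0.11, or 0.35 with median scaling, where 11 rose and 1 fell.

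Base excision and single-strand break repair held 2 of the 3 rises, or 28.6% of its genes, beside 16.3% of all genes. The other 5 of its 7 genes did not pass the test, and the median change was 0.13. Parp1 encodes the enzyme that binds strand breaks and builds poly(ADP-ribose) chains. It read 2.28 and 2.38 in controls and 3.92 and 3.85 with fluoxetine. The treated arrays were both far above the controls, a 1.67-fold rise (log2 change 0.74 ± 0.07, adjusted p = 0.0131). Ung, the glycosylase that removes uracil from DNA, read 43.5 and 43.7 in controls and 78.8 and 65.5 with fluoxetine. Both treated values were higher but differed from each other (log2 change 0.72 ± 0.12, 1.65-fold, adjusted p = 0.0257).

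Genes of the later steps did not pass the test. Apex1, which cuts the strand at the site left by a glycosylase, read 16.6 and 17.9 in controls and 19.8 and 19.2 with fluoxetine (0.18 ± 0.08, adjusted p = 0.157). Other Apex1 probes had changes of -0.48 ± 0.09 and -0.04 ± 0.08, so its direction depended on the probe. The scaffold Xrcc1 had -0.07 ± 0.08 and its partner ligase Lig3 0.01 ± 0.08, both with overlapping groups. Ogg1, the glycosylase for oxidised guanine, had -0.12 ± 0.07, and Parp2, a relative of PARP1, 0.13 ± 0.09. With the mean of the kept probes of each gene the median of the 7 genes was -0.07. Of 17 further genes 1 rose (5.88%, beside 16.3% of all genes) and 2 fell (11.8%, the same as over all genes). With median scaling 7 rose and 1 fell. Parp3 rose by 2.11-fold (log2 change 1.08 ± 0.16, adjusted p = 0.0226). The thymine glycosylases Mbd4 (-1.12 ± 0.13) and Tdg (-0.49 ± 0.07) fell. Among the glycosylases named here Ung thus rose, Mbd4 and Tdg fell, and Ogg1 did not pass the test.

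None of the 4 end joining genes passed limma's test, and their median change was -0.01, which turned to 0.23, with 1 gene called higher, under median scaling. At an unadjusted p under 0.05 there was 1 of them. The subunits of the Ku ring, which holds broken ends, were near 0, with changes of -0.03 ± 0.09 for Xrcc5 and 0.01 ± 0.07 for Xrcc6. Xrcc6 read 17.7 and 18.9 in controls and 18.3 and 18.3 with fluoxetine. Xrcc4, the scaffold of the final ligase, had -0.07 ± 0.09. Lig4, that ligase, read 1.45 and 1.59 in controls and 1.93 and 1.74 with fluoxetine, higher on both arrays but not called (0.27 ± 0.10, adjusted p = 0.111). Its other probe had a change of 0.48 ± 0.10 (adjusted p = 0.0383 in the fit over all probes). Of 7 further genes the ligation helpers Nhej1 (0.45 ± 0.10) and Paxx (0.44 ± 0.07) rose and Polm, a gap-filling polymerase, fell (-0.42 ± 0.07). These rises were 28.6% of the 7 genes, beside 16.3% of all genes, and the fall was 14.3%, beside 11.8%.

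Mgmt, the protein that takes alkyl groups directly off guanine, was not well above background on any array and was not tested. Alkbh2, a demethylase that reverses alkylation, fell (-0.29 ± 0.07). Among 9 genes of translesion synthesis, which copies past lesions, 3 rose (33.3%, beside 16.3% of all genes). They were Rad18 (0.47 ± 0.10), Polh (0.37 ± 0.08, with a further probe at -0.39) and Mad2l2 (0.34 ± 0.07). Rev1 (-0.68 ± 0.07) and Shprh (-0.53 ± 0.11) fell (22.2% of the 9 genes, beside 11.8% of all genes). Over all 143 repair genes tested, 37 fell (25.9%, beside 11.8% of all genes) and 14 rose (9.79%, beside 16.3%). This count of falls includes Fan1, which was kept through the control arrays alone. Quantile normalization gave 37 falls and 15 rises. With median scaling 13 fell and 48 rose, but there 5.94% of all genes were called lower and 39.1% higher. Which direction was more common thus depended on the scaling.

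**Figure D3:**
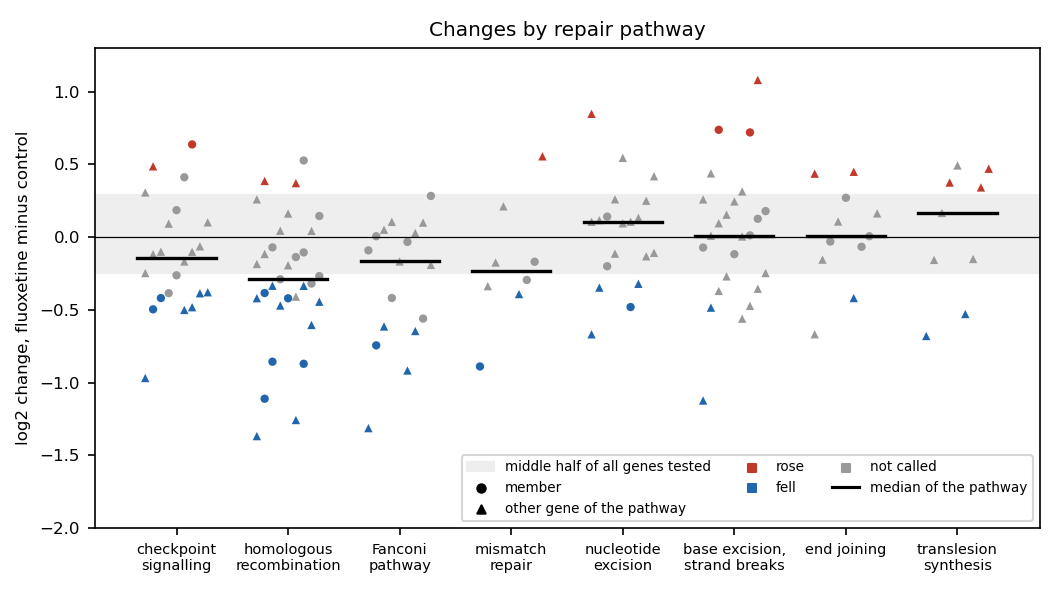
Log2 change (fluoxetine minus control) of the 44 listed genes (circles) and of further genes of the same pathways (triangles); colours give the call, black lines the median of each pathway and the grey band the middle of all genes tested, from the 25th to the 75th percentile. With arrays scaled by the 75th percentile, homologous recombination has the lowest median (-0.29, or -0.05 with median scaling) with 13 falls (5 with median scaling), whereas base excision repair (0.01) and end joining (0.01) have medians near 0.

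The 22 genes with more than 1 kept probe showed how far the choice of probe matters. All probes of a gene had the same sign in 13 genes, and signs were mixed in 9, which were Apex1, Bard1, Brip1, Clspn, Lig3, Palb2, Parp2, Rad50 and Rad52. In a fit over all 19889 kept probes, 11 of the 24 further probes fell and 2 rose. Counting all 68 probes of the 44 genes, 21 fell (30.9%, beside 11.7% of all probes) and 5 rose (7.35%, beside 16.9%). Both counts of falls include the dim Ercc2 probe that was kept through the control arrays alone. Topbp1 was among the genes with a further probe that fell by more, at -1.05 ± 0.08 (adjusted p = 0.0122), from 0.0947 and 0.102 to 0.0473 and 0.0475. Bard1 had one at -0.75 ± 0.12 (adjusted p = 0.0264). Several of these were dim probes, and dimness moved with the change. Among all kept probes with a mean signal under 150, 52.5% had a change below 0, beside 45.2% of brighter probes. Of the probes of the 44 genes, 8 of 14 dim ones (57.1%) and 38 of 54 brighter ones (70.4%) were below 0. Which transcripts each probe reads was not tested.

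**Figure D4:**
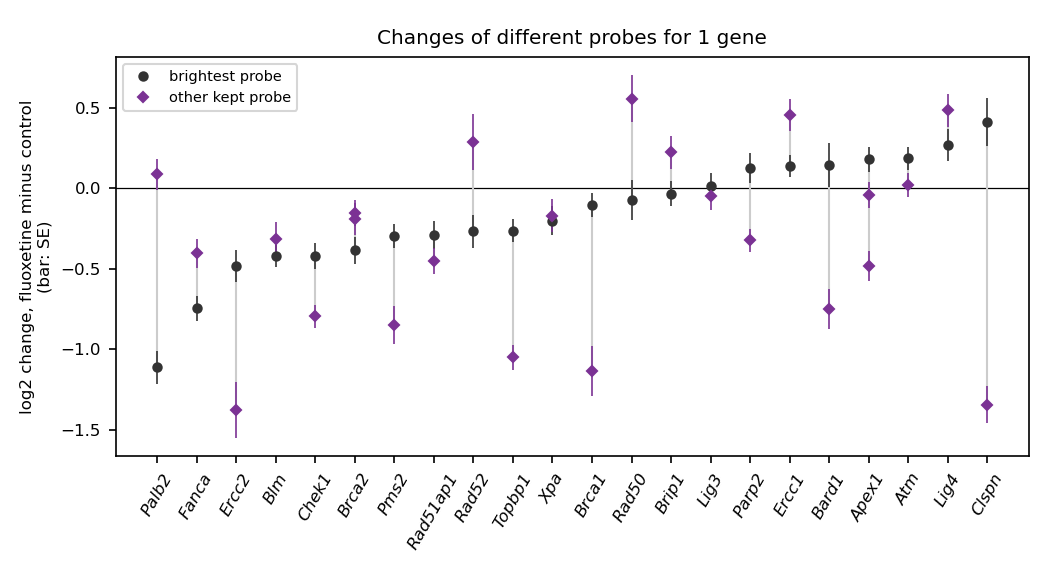
Log2 change (fluoxetine minus control) of each kept probe for the 22 genes with more than 1, ordered by the brightest probe (black circles); purple diamonds are the other kept probes and bars are the SE from 2 arrays per group. Vertical lines join the probes of a gene, and the longest join a pair of opposite sign in Clspn (0.41 and -1.34) and Palb2 (-1.11 and 0.09).

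Genes of neighbouring processes are given for comparison. Of 36 DNA replication genes tested, 13 fell (36.1%, beside 11.8% of all genes) and 2 rose, with a median change of -0.25. With median scaling 7 fell and 6 rose, and the median was -0.01. The largest falls were in the origin-licensing genes Orc1 (-0.76 ± 0.10) and Cdc6 (-0.73 ± 0.09) and the primase subunit Prim2 (-0.71 ± 0.08), and Cdc45 (0.85 ± 0.09) and Pola2 (0.64 ± 0.10) rose. Of 18 targets of p53 tested, 7 rose (38.9%, beside 16.3% of all genes) and 1 fell, with a median change of 0.24. With median scaling 10 rose, and the median was 0.49, beside 0.27 for all genes. The largest rises were in the cell death gene Bbc3 (1.16 ± 0.08), the stress gene Sesn2 (0.82 ± 0.08) and Ccng1 (0.74 ± 0.11), and Aen fell (-0.40 ± 0.07). The part of the replication genes in the result for recombination genes was not tested.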

How the data were processed

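Each of 4 samples, 2 of untreated and 2 of fluoxetine-treated S-180 cells, was hybridised to 1 Agilent array in a single colour. The values the authors deposited are intensity per spot, not log-transformed, from Feature Extraction (version 12.1.0.3 per the file headers). The processed signal was used, from which the software had removed background without scaling arrays to each other. Other deposited columns are marks for spots above background, saturated or outlying, per the file headers. Later steps by the authors are not given in the sources used here.

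In R 4.3.3 with limma 3.58.1, control, non-uniform and outlying spots were left out, log2 signal was centred on each array's 75th percentile, and spots of a probe were averaged. Of 56605 distinct probes 34645 matched 1 RefSeq symbol (GRCm38.p6), 21930 matched none and 0 matched several. A probe was kept when well above background on both arrays of a group, and the brightest kept probe stood for a gene. The fit (lmFit and eBayes) had group as its only term, with Benjamini-Hochberg adjustment over 13539 genes. An exact permutation test of 2 arrays against 2 cannot go below p = 0.333. The number of arrays limits the precision.

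All arrays shared 1 slide and 1 scan, so neither could be a block; each group lay side by side on the slide, and position and group cannot be told apart. The genes and lists were chosen with earlier results of these data known. Values on each array are given for called genes and, per pathway, for the uncalled gene with the largest change; of further genes, up to 3 rises and 3 falls per pathway are named. Others are named where a sentence compares them. Some genes of these lists are not reported here. The method was tested on simulated data. In them 0.706% of genes with a log2 change of 0.5 were called, 44.3% of those with 1 and 78% of those with 2. A gene that did not pass the test here need not be unchanged. Alternatives were other scalings, background corrections, filters, probe rules and variance priors, a replicate block and leaving out each array; the normexp alternative used the median spot signal in place of the mean that had been planned.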

Additional observations from a re-analysis of the deposited data

How the results depend on the processing

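Over all genes 3802 were called, with 6102 under median scaling, 1064 with the replicate number as a block and 2401 with the numbers crossed, an alternative added after seeing the data. The labels do not say whether the number pairs the samples. Deviations of same-numbered arrays correlated at -0.14, which with 2 arrays per group cannot settle it. Among the 44 genes the 3 rises became 11 under median scaling and 1 with the block, and the 10 falls became 5, 5 and 6 (crossed). The genes that still fell under both median scaling and the block were Exo1, Fanca, Palb2, Rad54l and Xrcc3. With no filter on dim probes limma called 0 genes (5503 at an unadjusted p under 0.05, with 18 of the 45 listed genes), with 0 rises and 0 falls among them. Leaving out 1 array, with the lone array of a group assumed to vary like the other group, gave 0 to 2215 called genes, 0 to 2 rises and 0 to 6 falls among the listed genes, with 4214 to 5652 genes at an unadjusted p under 0.05. All 10 falls and 3 rises kept their direction under every alternative run, but several alternatives could not turn it. The blocks, the intensity trend and the fit over all kept probes leave each change as it was. Leaving out 1 array could not turn a direction either, since the groups of these genes did not overlap. The other counts stayed within 1.5 times. With the intensity trend 15 genes fell and 4 rose.

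Some uncalled changes turned sign. Under median scaling these turns followed from the amount it adds to every gene. Under the other alternatives the cause was not tested. Median scaling turned the median of the 44 genes to 0.13 and gave Brca1 0.14, Rad50 0.17, Mre11a 0.11, Fancl 0.15, Brip1 0.21, Msh6 0.073, Ogg1 0.13, Xrcc1 0.17, Xrcc4 0.18, Xrcc5 0.21 and Xpa 0.043; it adds the same amount to every gene. Normexp background correction gave a change of Parp2 of -0.051 and a change of Xrcc6 of -0.0053. The mean of kept probes gave Clspn -0.47, Bard1 -0.30, Rad50 0.24, Rad52 0.010, Brip1 0.095, Apex1 -0.12, Lig3 -0.018, Parp2 -0.10 and, among further genes, Bap1 -0.11. Leaving out 1 array gave changes of -0.0056 to 0.30 for Bard1, of -0.082 to 0.016 for Brip1, of -0.083 to 0.10 for Fancd2, of -0.19 to 0.0024 for Fancl, of -0.050 to 0.074 for Lig3, of -0.56 to 0.23 for Msh6, of -0.22 to 0.075 for Rad50, of -0.14 to 0.011 for Xrcc4, of -0.12 to 0.057 for Xrcc5 and of -0.041 to 0.053 for Xrcc6. Signal near background limits the dim probes.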
